A study of Mus musculus with 17 samples.

Results

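The comparison was between CD11c+ and CD11c- microglia of neonatal C57BL/6 mice, and it asked which genes set the CD11c+ subset apart within the neonatal brain. All 8 neonatal libraries of the 17 in the series were used, 4 labelled CD11c positive (libraries 13 to 16) and 4 labelled CD11c negative (libraries 17 to 20). Each library held total RNA of microglia isolated by cell sorting for CD45, CD11b and CD11c, so that both subsets were CD45dim CD11b+ and differed in the surface integrin CD11c. Per the methods of the study, the mice were in the first postnatal week and each library was a pool of mice. The labels link no CD11c+ library to the CD11c- library of the same sort, and a p-value therefore measures the spread between pools within a subset. Of 41388 gene IDs, 12330 reached 1 CPM (counts scaled to a common library size) in at least 3 of the 8 libraries and were tested with the quasi-likelihood test of edgeR. Values below are CPM, and differences are log2 fold changes of CD11c+ over CD11c- with their standard error (SE).

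Microglia are the resident macrophages of the brain and spinal cord. CD11c, the product of Itgax, is an integrin better known from dendritic cells, and a subset of microglia carries it in the developing white matter and around lesions. Macrophages of the brain borders, in the meninges, around vessels and in the choroid plexus, share many genes with microglia and can enter the same sort gate, as can granulocytes and fragments of neurons.

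Csf1r and Cx3cr1, 2 markers of microglia, were high in every library. They belong to a list of 26 identity genes, of which 5 fell and 1 rose in CD11c+ (given below). Csf1r, the receptor that microglia need for survival, was between 9226 and 10110 CPM in the CD11c+ libraries and between 7953 and 11560 CPM in the CD11c- libraries. Cx3cr1, the fractalkine receptor, lay between 4221 and 5069 CPM in CD11c+ and between 4833 and 6331 CPM in CD11c-. Neither gene passed the test (adjusted p = 0.902 and 0.159).

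Itgax was the check of the sort gate, and it separated the labels in every library. It was at 316, 395, 432 and 288 CPM in CD11c+ libraries 13 to 16 and at 9.45, 8.39, 11.8 and 8.67 CPM in CD11c- libraries 17 to 20. The log2 fold change of 5.21 ± 0.19 (SE, n = 4 and 4) follows from the gate and is no finding about the subset. Itgax lies on the plus strand of chromosome 7, at 128129547 to 128150657 of GRCm38.

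Libraries differed in more than the subset. The CD11c+ libraries held 6373937 to 9294738 counted reads and the CD11c- libraries 5115489 to 8159122. CD11c+ library 16 had a summed level of 30150 CPM over 24 immediate early and stress genes, against 2948 to 3607 CPM in the other CD11c+ libraries and 4852 to 9776 CPM in the CD11c- libraries. CD11c- library 17 had 5.10% of its reads on mitochondrially encoded genes, against 1.06% to 1.56% in the other 7 neonatal libraries. Each of the 2 stood farther from its group than the other libraries did. The leading distances over 500 genes averaged 1.859 log2 units for library 16 against 1.279 to 1.398 for the other CD11c+ libraries, and 2.076 for library 17 against 1.739 to 1.818. Without both libraries, 406 genes were called higher and 81 lower, against 312 and 58 with them.

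**Figure D1:**
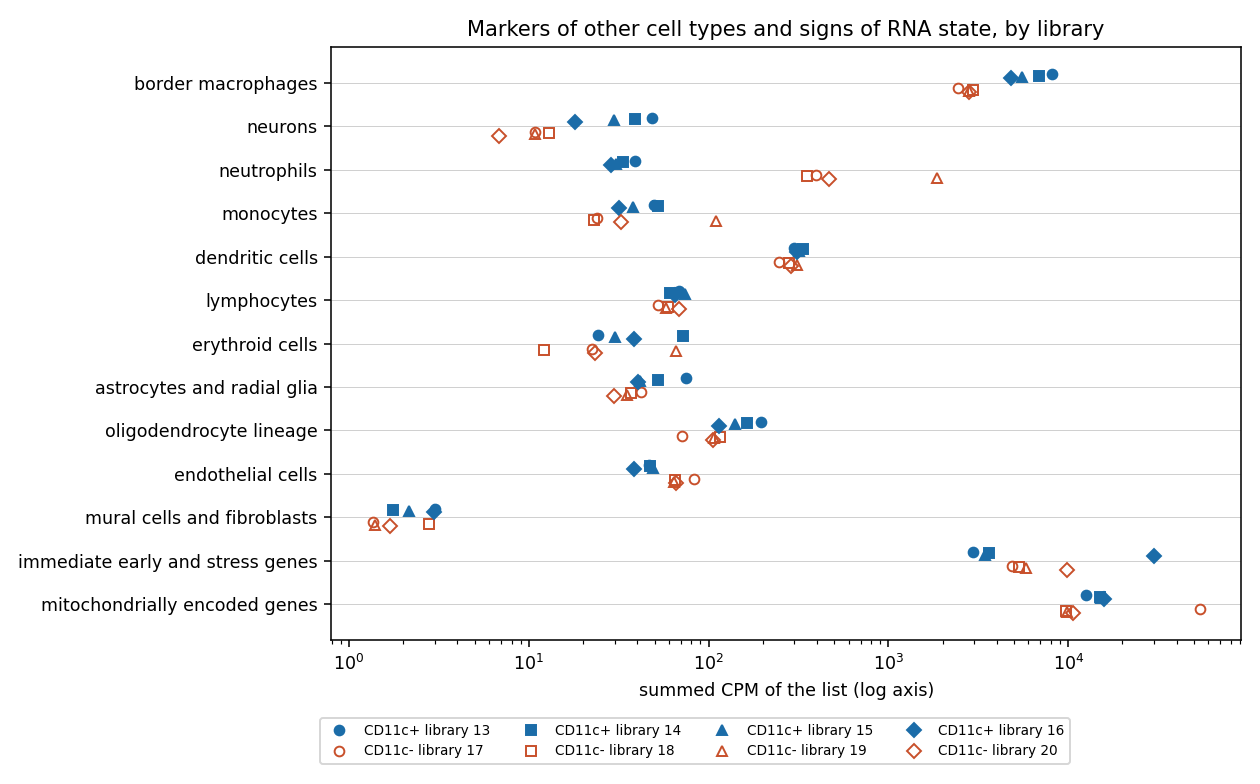
Summed CPM of marker lists of other cell types, of immediate early and stress genes and of mitochondrially encoded genes, 1 point per library on a log axis (filled, CD11c+ libraries 13 to 16; open, CD11c- libraries 17 to 20). Border macrophage markers lie between 4779 and 8142 CPM in CD11c+ and between 2448 and 2969 CPM in CD11c-. Most of this sum is Stab1 and Mrc1, which are at 1091 to 2045 and 857 to 1243 CPM in CD11c-. The sum therefore differs less between the subsets than markers such as F13a1 do. Neutrophil markers lie between 28.5 and 38.8 CPM in CD11c+ and between 350.7 and 1873 CPM in CD11c-, with library 19 the highest.

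Markers of several other kinds of cell differed between the subsets. Border macrophage markers were higher in the CD11c+ libraries: 9 of the 10 rose (median log2 fold change 3.25 over the 10, against -0.01 over all genes tested). Neuron markers were low in both groups, with a summed level of 18.0 to 48.1 CPM over 15 genes in CD11c+ and of 6.79 to 12.9 CPM in the CD11c- libraries, and 3 of the 8 tested rose (median 1.88). Astrocyte and radial glia markers were similar, with a sum of 40.7 to 75.0 CPM against 29.6 to 41.9 CPM, and 3 of the 8 tested rose (median 2.39). Both counts changed with 1 library left out, whichever group it came from. For neuron markers the count was 0 without library 13, 14, 15, 18 or 20, 1 without 19 and 5 without 17. For astrocyte markers it was 0 without library 13, 14, 18, 19 or 20 and 1 without 16. Neutrophil markers ran the other way, 9 of the 10 tested being lower in CD11c+ and 1 higher, with a median of -5.91, and the 1 higher did not pass without library 13, 14, 15, 18 or 20. The background for such counts was 3.92% of all genes tested that rose and 1.10% that fell. Because bulk libraries were compared, more cells of a type and more RNA per cell cannot be told apart. Beyond the library profiles given below, the part of this RNA in the results was not tested.

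The other lineages were described in the same way. No CD3 gene of the list (Cd3e, Cd3d, Cd3g) had a count in any of the 8 libraries, and the lymphocyte sum of 52.5 to 74.0 CPM was almost wholly Cd79b. Among dendritic cell markers Clec9a, Cd209a and Ccr7 stayed at 0.428 CPM or less and Xcr1 at 2.12 CPM or less in every library, 0 of the 3 tested passed, and most of the sum was Wdfy4, at 232.6 to 316.7 CPM. Mast cell markers summed to 0.467 CPM or less. Erythroid genes ranged from 24.2 to 71.6 CPM in the CD11c+ libraries and from 12.1 to 65.4 CPM in CD11c-, and 0 of 5 passed. Of 8 tested monocyte markers 1 rose and 2 fell (median -0.25), and 0 to 2 fell with 1 library left out. Oligodendrocyte lineage markers summed to 115 to 195 CPM in CD11c+ against 70.6 to 116 CPM, and 1 of the 8 tested rose (median 1.46; 0 to 2 with 1 library left out). Endothelial markers were lower in CD11c+ as a sum, at 38.4 to 49.3 CPM against 63.7 to 83.3 CPM without overlap. Most of the sum was Pecam1, at 26.4 to 30.7 CPM against 46.1 to 59.2 CPM, and Cldn5 had no count in any of the 8 libraries. Of the 5 tested 1 rose (Flt1) and 1 fell (Pecam1), with a median of -0.70, and 0 or 1 rose with 1 library left out. Of mural and fibroblast markers, 1 of 8 was tested and it did not pass.

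Across all genes, 312 were called higher in CD11c+ and 58 lower, with the adjusted p at 0.01 or below and a change of 1 log2 unit or more, which is 2.53% and 0.470% of the genes tested. The libraries of the groups did not overlap for any of these 370 genes, whereas 13.2% of all genes tested had every CD11c+ library above every CD11c- library and 9.61% had every one below. Of the higher genes, 134 had a log2 fold change of 2 or more. Of the lower genes, 31 were at -2 or beyond. The counts changed with 1 library left out. Genes called higher numbered 183 without library 13, 177 without library 14, 206 without library 18 and 195 without library 20. Genes called lower numbered 31, 31 and 35 without libraries 13, 14 and 15.

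**Figure D2:**
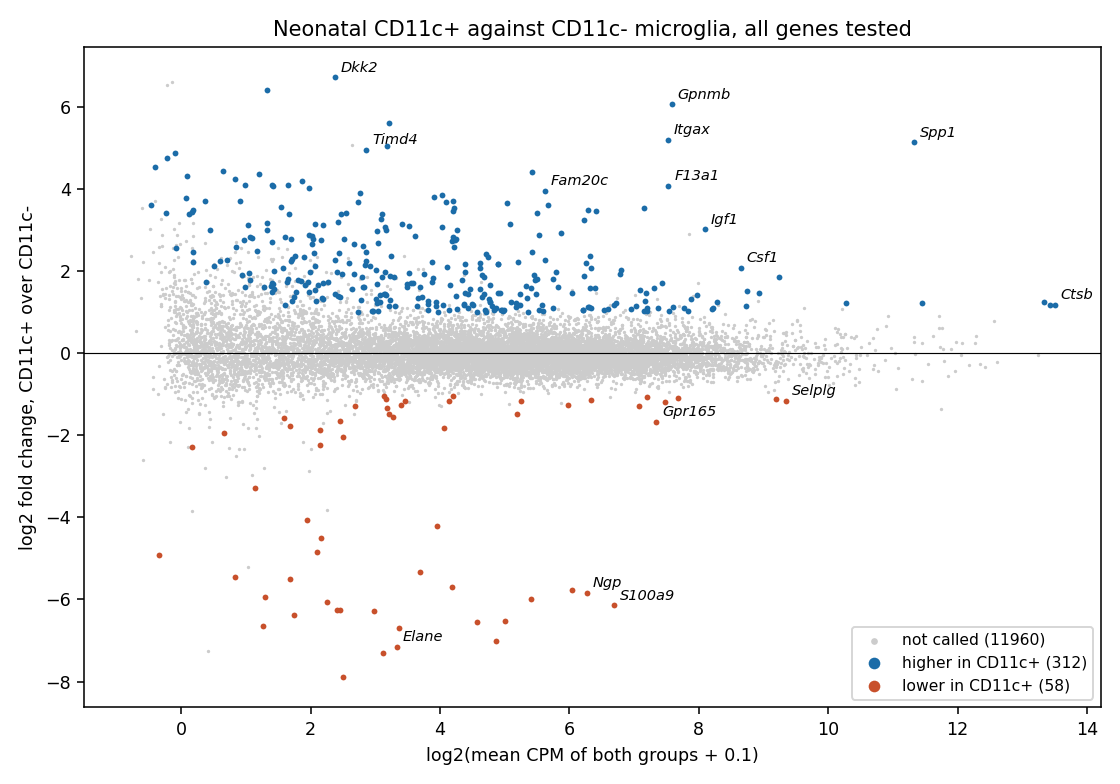
Log2 fold change of neonatal CD11c+ over CD11c- microglia against the log2 mean CPM of both groups, 1 point per gene tested (12330 genes; 4 libraries per group). Genes called higher (312) and lower (58) are coloured; Gpnmb (6.07), Itgax (5.21) and Spp1 (5.14) lie above the other abundant genes, and granulocyte genes such as S100a9 (-6.14) lie far below 0.

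To separate the programme of the subset from that of border macrophages by library, each library was given a border macrophage score, the mean log2 CPM of the 10 markers, each centred over the 8 libraries. The score was 2.16, 1.59, 0.88 and 0.93 in CD11c+ libraries 13 to 16 and lay between -1.59 and -1.26 in the CD11c- libraries. CD11c+ libraries therefore differed among themselves by more than 1 log2 unit, with library 13 richest in these markers. A slope on the score, fitted beside the subset, gives the log2 change of a gene per unit of score from library to library within the subsets. A gene that follows border macrophages from pool to pool has a slope near 1, and a gene indifferent to them a slope near 0. Of the variance of the score over the 8 libraries, 93.0% lay between the subsets, so that the score is nearly collinear with the subset: with it as a term in the model 0 genes were called in either direction, although 456 had an unadjusted p under 0.05. The slopes and score-adjusted fold changes rest mainly on the differences among the 4 CD11c+ pools and are given as a description, and 0 of them passed an adjusted p of 0.01 with all 8 libraries (366 had an unadjusted p under 0.05), against 6 without library 17.

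Slopes divided the higher genes. Of 201 genes called higher with at least 10 CPM in CD11c+, the 10 markers left aside, 112 had a slope under 0.25, 43 a slope between 0.25 and 0.5, and 46 a slope of 0.5 or more. Slopes of 0.5 or more were thus found in 22.9% of these genes, against 1.51% of all 8923 tested genes at 10 CPM or more. Slopes under 0.25 were found in 55.7% of these genes, against 92.9% of the 8923. A slope under 0.25 is thus the common case, and counts of such slopes in the lists below stand beside that share. The limits of 0.25 and 0.5 were chosen after the slopes had been seen. Library 13 set the size of the steep group, which held 70 of the 201 genes without it, and a score from the summed CPM of the markers, which spans a narrower range, gave 74.

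The border macrophage genes themselves showed the gradient. F13a1 (chromosome 13, 36867178 to 37050244, minus strand), a transglutaminase subunit made by tissue macrophages, was at 628, 412, 171 and 184 CPM in CD11c+ libraries 13 to 16 and at 24.7, 15.7, 24.6 and 17.2 CPM in the CD11c- libraries (log2 fold change 4.08 ± 0.42, adjusted p = 1.91e-04). Lyve1, the hyaluronan receptor of perivascular macrophages, was at 451, 287, 158 and 149 CPM against 34.1, 15.2, 18.8 and 22.8 CPM. Cd163, the haptoglobin-haemoglobin receptor, was at 256, 185, 94.6 and 90.9 CPM against 23.3, 11.3, 12.1 and 9.80 CPM. For all 3, library 13 was the highest and the groups did not overlap. The ratio of library 13 to library 15 was 3.67 for F13a1, 2.86 for Lyve1, 2.70 for Cd163, 2.79 for Pf4, 3.11 for Cbr2, 2.98 for Ms4a7 and 3.05 for the lectin gene Clec10a, and 1.65 for Folr2, the folate receptor. Slopes of these genes lay between 0.65 for Folr2 and 1.53 for F13a1; they enter the score, so that a steep slope is built in.

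Mrc1, the mannose receptor, was the 1 marker that did not pass the test, at 1853, 1486, 1099 and 971 CPM in CD11c+ against 1243, 857, 914 and 900 CPM in CD11c- (0.47 ± 0.20, adjusted p = 0.157). Stab1, a scavenger receptor, rose by a smaller step (1.22 ± 0.19, adjusted p = 0.00220) and had a slope of 0.20. Stab1 too was high in CD11c-, at 1091 to 2045 CPM against 3178 to 4518 CPM in CD11c+. In adult microglia, Mrc1 averaged 53.6 CPM.

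Genes outside the marker list ran along the same gradient. Timd4, a receptor for phosphatidylserine on dying cells, was at 22.6, 16.3, 5.22 and 11.4 CPM in CD11c+ and at 0.771 CPM or less in CD11c- (adjusted p = 4.82e-04, slope 1.27 ± 0.38). Cd38, an ectoenzyme that consumes NAD, had a slope of 1.31 ± 0.20 and was 3.18-fold higher in library 13 than in library 15. Cd36, a receptor for oxidised lipids, had a slope of 1.04 ± 0.19 and the lectin gene Cd209f one of 1.01 ± 0.30. Cd4 was at 24.9, 16.9, 7.26 and 12.2 CPM in CD11c+ and at 1.35 to 1.71 CPM in CD11c-, with a slope of 1.08 ± 0.25, in libraries with no count for the CD3 genes named above; Cd4 is named here after its values were seen. Of the 11 phagocytic and scavenger receptors that rose, 7 had a slope of 0.5 or more.

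**Figure D3:**
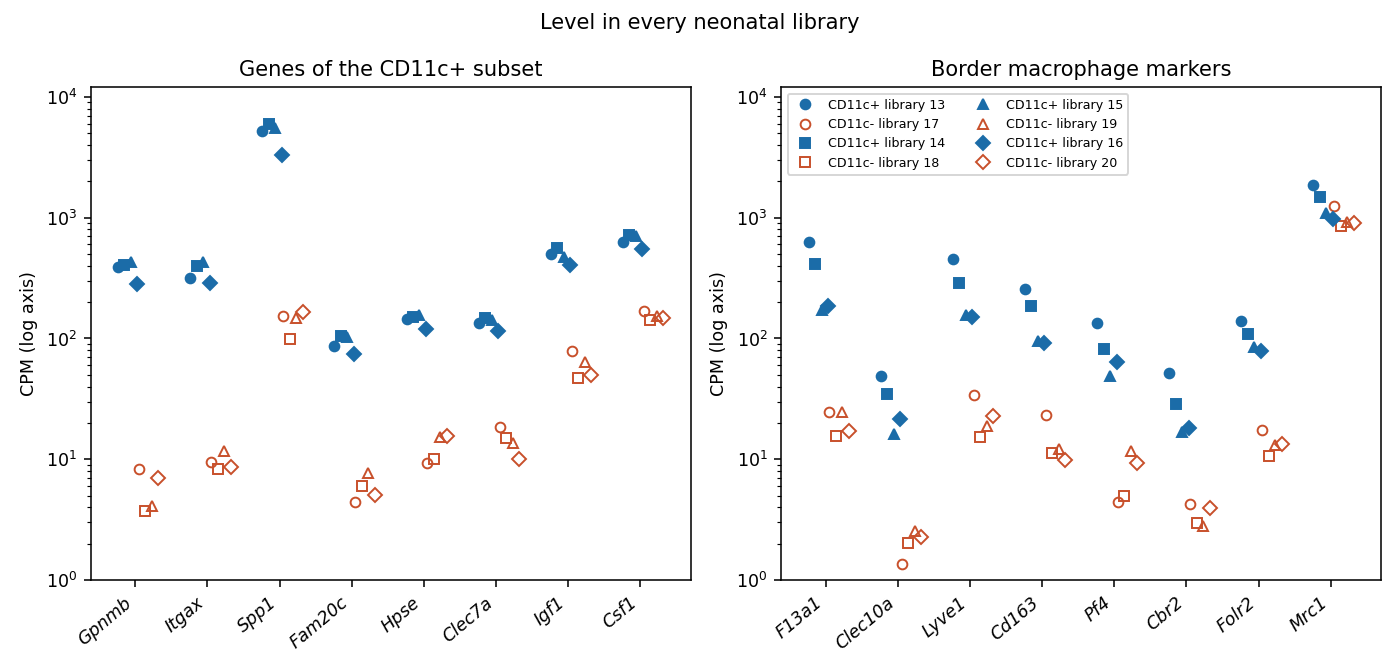
CPM on a log axis in each of the 8 neonatal libraries for 8 genes of the CD11c+ subset (left) and 8 border macrophage markers (right), filled symbols for CD11c+ libraries 13 to 16 and open symbols for CD11c- libraries 17 to 20. On the left, Gpnmb lies between 284 and 432 CPM in CD11c+ and Spp1, lowest in library 16, between 3300 and 5926 CPM. On the right, the CD11c+ libraries fall from library 13 down to libraries 15 and 16. F13a1 spreads widely, between 171 and 628 CPM, and Folr2 less, between 79.1 and 140.7 CPM. The groups overlap for Mrc1.

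For Gpnmb, Spp1 and Igf1, library 13 was not the highest CD11c+ library. Gpnmb (chromosome 6, 49036546 to 49070929 of GRCm38, plus strand), a glycoprotein of lysosomal and phagocytic membranes, was at 388, 408, 432 and 284 CPM in CD11c+ libraries 13 to 16 and at 8.29, 3.73, 4.09 and 6.98 CPM in CD11c- libraries 17 to 20 (6.07 ± 0.26, adjusted p = 7.40e-07, slope 0.14 ± 0.27). Spp1 (chromosome 5, 104435118 to 104441050, plus strand), which encodes the matrix protein osteopontin, was at 5187, 5926, 5559 and 3300 CPM against 154, 98.8, 148 and 164 CPM (5.14 ± 0.24, adjusted p = 9.83e-07, slope 0.30 ± 0.27). Library 16, the library high in immediate early genes, was the lowest CD11c+ library for both, and it was still far above every CD11c- library. Igf1, a growth factor for myelinating cells and neurons, was at 503, 562, 474 and 402 CPM against 78.5, 47.2, 63.5 and 49.8 CPM (3.02 ± 0.18, adjusted p = 3.95e-06, slope 0.29 ± 0.21). Ratios of library 13 to library 15 were 0.898 for Gpnmb, 0.933 for Spp1 and 1.06 for Igf1, beside 3.67 for F13a1.

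Csf1, Fam20c and Clec7a had slopes near 0. Csf1, a ligand of the receptor Csf1r, was at 625, 724, 705 and 550 CPM against 168, 142, 154 and 148 CPM (2.09 ± 0.12, adjusted p = 3.36e-06). Fam20c, a kinase of secreted proteins whose best known substrates include osteopontin, was at 87.14, 104.6, 102.5 and 74.8 CPM against 4.43, 6.06, 7.71 and 5.09 CPM (3.95 ± 0.19, adjusted p = 9.83e-07). Clec7a, the beta-glucan receptor Dectin-1, was at 135, 148, 142 and 116 CPM against 18.5, 14.9, 13.7 and 9.99 CPM (3.25 ± 0.17, adjusted p = 1.69e-06). Slopes of the 3 lay between 0.03 and 0.09, and the groups did not overlap.

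The genes with the largest fitted changes were partly at the floor in CD11c-. Dkk2, a secreted modulator of Wnt signalling, was at 11.2, 11.8, 10.9 and 6.42 CPM in CD11c+ and at 0, 0.155, 0 and 0.189 CPM in CD11c-. Atp6v0d2, a subunit of the vacuolar proton pump, was at 14.3 to 21.8 CPM in CD11c+ and at 0.193 to 0.467 CPM in CD11c-, and Mamdc2 at 14.2 to 19.2 CPM and 0.193 to 0.754 CPM. A count of 3, taken as the floor, stands for 0.321 to 0.579 CPM in these libraries, so that no fold is given for the 3 genes. All of them passed the test, at an adjusted p of 1.65e-05 or less.

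The promoters of Itgax and Gpnmb, both sharply divided between the subsets, hold the motif TGACTCA bound by AP-1 factors. The motif was searched on both strands, and it occurs in 1709 of 32851 RefSeq promoters (250 bases before to 50 after a start, GRCm38.p6), in 11 of 106 promoters of the low-slope genes (10.4%) and in 3 of 43 promoters of the genes with a slope of 0.5 or more (6.98%). A match is a description of the sequence only. Capitals mark it, at chr7:128129300-128129599 on the plus strand for Itgax and at chr6:49036268-49036567 on the plus strand for Gpnmb.
Itgax: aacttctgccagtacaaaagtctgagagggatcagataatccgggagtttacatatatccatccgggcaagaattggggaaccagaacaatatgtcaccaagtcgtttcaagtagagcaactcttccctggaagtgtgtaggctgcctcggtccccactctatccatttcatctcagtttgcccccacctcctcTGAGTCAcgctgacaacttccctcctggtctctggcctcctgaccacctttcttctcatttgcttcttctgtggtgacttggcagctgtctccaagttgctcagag
Gpnmb: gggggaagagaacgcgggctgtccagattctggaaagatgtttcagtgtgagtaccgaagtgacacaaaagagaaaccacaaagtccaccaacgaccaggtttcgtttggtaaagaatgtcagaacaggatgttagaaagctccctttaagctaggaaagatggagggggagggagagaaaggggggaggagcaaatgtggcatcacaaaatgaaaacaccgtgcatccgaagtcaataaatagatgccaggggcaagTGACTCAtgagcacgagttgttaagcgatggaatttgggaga

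Genes known from microglia around damage and plaques made up a list of 28, all of them tested. Of these, 21 rose and 0 fell, with a median log2 fold change of 1.15. The count of 21 went to 14 without library 13, to 15 without library 14 or 20 and to 25 without library 17. Of the 21, 19 had a border macrophage slope under 0.25 and 0 had one of 0.5 or more. The shares over all tested genes at 10 CPM or more were 92.9% and 1.51%. Apoe, a carrier of lipids, was at 15130, 13200, 15080 and 15170 CPM in CD11c+ and at 3759, 9011, 6465 and 5324 CPM in CD11c- (1.25 ± 0.22, adjusted p = 0.00443). Lpl, the lipase that frees fatty acids from lipoproteins, was at 1668, 1902, 1989 and 1402 CPM against 845, 640, 701 and 766 CPM (1.24 ± 0.14, adjusted p = 3.11e-04). Lgals3, the galectin gene, was at 28.9 to 38.4 CPM in CD11c+ and at 0.964 to 4.44 CPM in CD11c-. Itgax is in this list and belongs to the gate.

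The study named 20 genes as associated with CD11c+ microglia, on these samples, so their direction is not independent evidence. Of the 17 tested, 14 rose and 0 fell (median 3.62), and Itgax, the gene of the gate, is among the 14. Of the 14, 10 had a slope under 0.25, against 92.9% of all tested genes at 10 CPM or more. Hpse, the heparanase that cuts heparan sulphate chains, was at 146, 152, 155 and 120 CPM against 9.26, 10.1, 15.4 and 15.5 CPM (3.50 ± 0.18). Fabp5, a fatty acid binding protein, was at 64.4, 63.3, 62.1 and 52.0 CPM against 2.31, 6.83, 5.72 and 3.77 CPM (3.65 ± 0.24). The members with a slope of 0.5 or more were the collectin Colec12 (slope 0.63 ± 0.24; 56.2 to 104 CPM against 1.86 to 5.21 CPM) and the adenylate kinase Ak4. The proteoglycan gene Cspg4 and the lysyl oxidase gene Lox were low, averaging 4.87 and 5.32 CPM in CD11c+.

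A second list of the study, 16 genes of neurogenic signals, was also chosen on these samples. All were tested, 10 rose and 0 fell (median 2.29). Among them Gpnmb, Csf1, Gpx3, Cxcl12 and Mmp19 had slopes under 0.25, while Bmp2 and Adam19 had slopes of 0.64 ± 0.37 and 0.85 ± 0.22. Adam19, a shedding protease, was at 15.6, 11.8, 6.62 and 8.73 CPM against 3.47, 2.64, 3.27 and 2.45 CPM. With the border macrophage score as a term, its log2 fold change went from 1.85 to -0.59 (adjusted p = 0.997), a value that extrapolates from the CD11c+ pools. Bmp2, a bone morphogenetic protein, was at 15.4, 9.70, 5.73 and 11.2 CPM against 0.193 to 1.24 CPM. Gpx3, a secreted glutathione peroxidase, was even across CD11c+ pools, at 254 to 274 CPM against 56.1 to 116 CPM (1.72 ± 0.19, adjusted p = 2.96e-04). Lgals1, galectin-1, rose by 2.89 ± 0.19 with a slope of 0.36 ± 0.20, and Cxcl12 averaged 3.49 CPM in CD11c+ and 0.491 CPM in CD11c-.

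The study named 10 neuroectodermal genes for neonatal against adult microglia, not for CD11c+ against CD11c-. In the present comparison all 10 were tested, 5 rose and 0 fell, and the 5 were Fabp5, Fabp7, Dcx, Gap43 and Vim. The count was 2 without library 13, 14, 18 or 20 and 3 without library 15 or 19, and the list was chosen on data that include these samples. Dcx, a microtubule protein of young neurons, was at 8.02, 7.06, 4.97 and 1.98 CPM in CD11c+ libraries 13 to 16 and at 0.466 to 1.35 CPM in CD11c- (2.38 ± 0.46, adjusted p = 0.00710, border macrophage slope 1.01 ± 0.41). Fabp7, of radial glia, was at 14.3, 4.74, 2.55 and 6.09 CPM against 0.701 to 1.40 CPM. The neuron score was 1.36, 1.00, 0.75 and 0.04 in libraries 13 to 16 and lay between -1.23 and -0.52 in CD11c-. Library 16 was the lowest CD11c+ library for the score and for Dcx, but not for Fabp7. Dcx had a slope of 1.21 and Map2, a dendrite protein, one of 1.87 on the neuron score, which both genes enter. The border macrophage and neuron scores put libraries 13, 14 and 15 in the same order, and their parts cannot be told apart with 4 CD11c+ pools. Vim, the intermediate filament vimentin, was higher and even, at 67.2 to 94.8 CPM against 16.2 to 38.5 CPM (1.80 ± 0.24, slope 0.36 on the border macrophage score). Nes, the filament gene nestin, did not pass and leaned the other way, at 113 to 169 CPM in CD11c+ against 160 to 270 CPM (-0.66 ± 0.17, adjusted p = 0.0316). By quantitative PCR, the study reported similar nestin transcript levels in both neonatal subsets.

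Of 25 genes for uptake, efflux and storage of lipids 21 were tested, 13 rose and 0 fell (median 0.98; 9 to 15 rose with 1 library left out). Of the 13, 10 had a border macrophage slope under 0.25, against 92.9% of all tested genes at 10 CPM or more. Plin2, the coat protein of lipid droplets, was at 386, 341, 361 and 373 CPM against 99.9, 171, 132 and 137 CPM (1.43 ± 0.15, adjusted p = 1.91e-04). The exceptions with a slope of 0.5 or more were Cd36, Pltp and Msr1. Of the 20 tested genes of sterol synthesis, 0 rose and 0 fell (median 0.06).

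Of 40 lysosomal hydrolases and membrane proteins 39 were tested, 15 rose and 0 fell (median 0.51), and their summed level was 74800 to 82800 CPM in CD11c+ against 51000 to 55200 CPM in CD11c-. The count of 15 went to between 7 and 9 without library 13, 14, 15, 18, 19 or 20 and to 25 without library 17. None of the 15 had a border macrophage slope of 0.5 or more, which 1.51% of all tested genes at 10 CPM or more had. Ctsb, a cysteine protease, was at 16140, 16570, 17250 and 14580 CPM against 6582, 6975, 7294 and 7601 CPM (1.18 ± 0.10, adjusted p = 6.83e-05). Ctsd, an aspartic protease, was at 14520, 15310, 16260 and 14740 CPM against 5211, 6618, 7263 and 7999 CPM (1.17 ± 0.14, adjusted p = 3.76e-04). Atp6v1a, a subunit of the proton pump, rose by 1.04 ± 0.10. Gla, an alpha-galactosidase, also passed, at 41.9, 49.0, 50.2 and 134 CPM against 15.1 to 24.5 CPM, and library 16 was the high one. Mitf, a transcription factor of the family that acts on lysosomal genes, was at 94.1 to 103 CPM in CD11c+ against 30.0 to 68.7 CPM (1.06 ± 0.20, adjusted p = 0.00627). Its relatives Tfe3, Tfeb and Tfec were tested and did not pass. Tfe3 was at 223 to 243 CPM against 188.9 to 235.5 CPM and Tfeb at 46.8 to 67.7 CPM against 32.6 to 59.5 CPM. Tfec was at 24.45 to 34.64 CPM against 19.86 to 22.3 CPM.

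Factors of the Mitf family bind the E-box CACGTG, and the promoter of Ctsd is shown for this motif. It was found in a promoter of 8 of the 12 lysosomal genes that rose and had a RefSeq entry, of 4 of the 17 with an entry that did not pass, and of 2187 of all 27025 genes with an entry. Among the higher genes with a border macrophage slope under 0.25 it was in 12 of 106 promoters (11.3%), against 7.15% of all promoters. A match is a description of the sequence only, and whether Mitf acts on these genes was not tested. The letters of the motif read the same on both strands. The Ctsd promoter lies at chr7:142387778-142388077 of GRCm38.p6 on the minus strand, with 2 matches in capitals.
Ctsd: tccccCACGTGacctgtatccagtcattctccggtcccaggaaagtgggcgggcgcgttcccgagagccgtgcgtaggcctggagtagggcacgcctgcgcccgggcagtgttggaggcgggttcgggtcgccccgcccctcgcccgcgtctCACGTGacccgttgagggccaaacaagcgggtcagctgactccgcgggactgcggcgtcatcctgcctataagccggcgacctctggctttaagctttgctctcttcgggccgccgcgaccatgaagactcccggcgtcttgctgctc

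All 22 genes of the glycolysis list were tested, 9 rose and 0 fell (median 0.82). The count of 9 went to 5 without library 13, 14, 19 or 20. Of the 9, 8 had a slope under 0.25, against 92.9% of all tested genes at 10 CPM or more. Tpi1 was at 210, 205, 221 and 176 CPM against 66.7, 92.3, 78.6 and 97.7 CPM (1.28 ± 0.14, adjusted p = 2.04e-04), and Aldoa rose by 1.10 ± 0.14, Pfkfb3 by 0.86 ± 0.11 and Pkm by 0.83 ± 0.11. Of 23 tested genes for antioxidant defence and metal handling 6 rose and 0 fell (median 0.47; 2 without library 13 and 3 without 14, 15, 18, 19 or 20), among them Hmox1, which breaks down haem (1.54 ± 0.19), the peroxiredoxin gene Prdx6 (1.01 ± 0.16) and the ferritin gene Fth1 (0.80 ± 0.13).

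**Figure D4:**
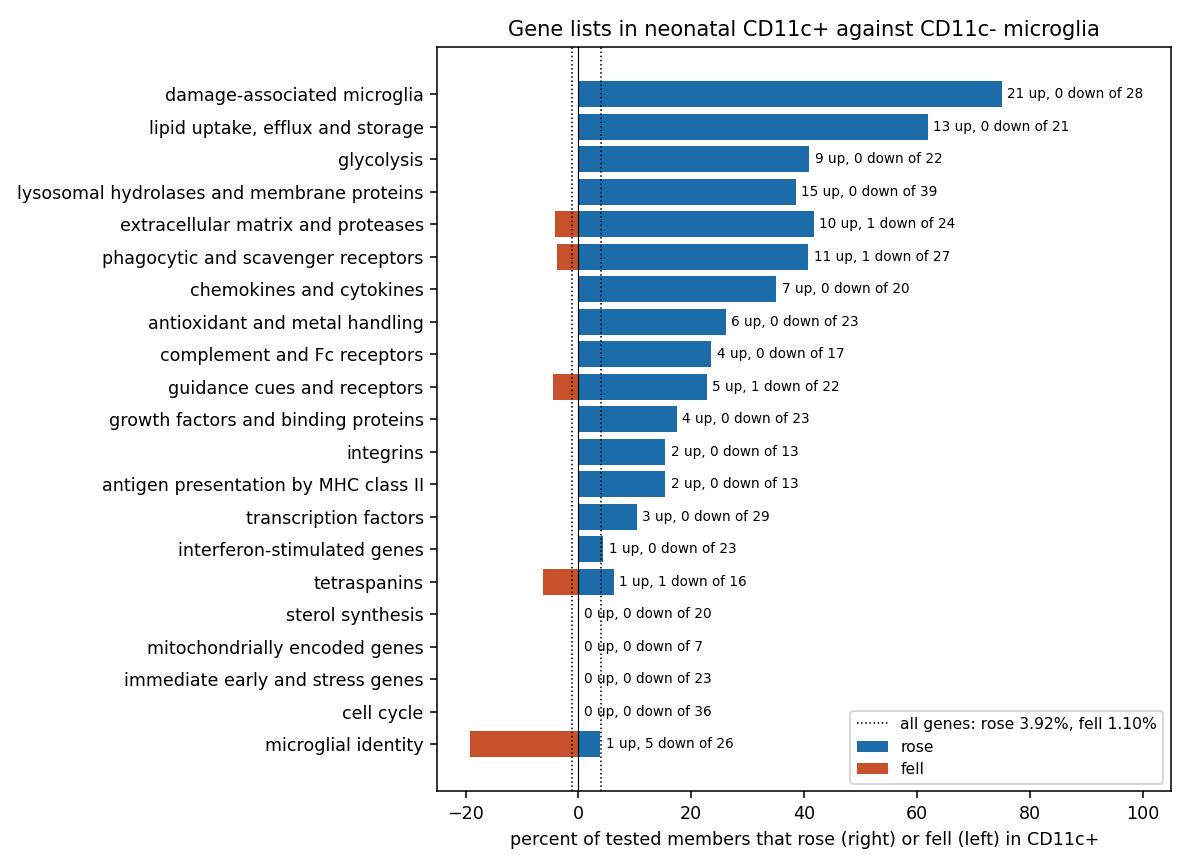
Percent of the tested members of 21 functional gene lists that rose (bars to the right) or fell (bars to the left) in neonatal CD11c+ microglia at an adjusted p of 0.01 or less, with counts beside the bars and dotted lines at the shares of all genes. Damage-associated genes lead with 21 of 28, lipid genes follow with 13 of 21, cell cycle and sterol synthesis genes have 0, and microglial identity genes have 5 that fell.

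Of 24 tested matrix genes and proteases 10 rose and 1 fell (median 1.27; 6 rose without library 14 or 18), with Plaur, the urokinase receptor, at 38.0, 40.1, 39.5 and 41.2 CPM against 7.13, 11.03, 12.49 and 11.12 CPM (1.91 ± 0.16, slope -0.07). Fn1, fibronectin, rose with a slope of 0.64. Of 20 tested chemokines and cytokines 7 rose and 0 fell (median 1.22; 4 without library 14 or 20), including Ccl9 (1.33 ± 0.15) and Ccl6 (1.11 ± 0.12). Of 22 tested guidance cues and receptors 5 rose and 1 fell (median 0.48; 3 rose without library 13, 14, 15, 18, 19 or 20): the plexin genes Plxnc1 (1.79 ± 0.23) and Plxnd1 (1.61 ± 0.17) were among the higher ones, and the ephrin gene Efnb1 was the lower one (-1.03 ± 0.15). Of 23 tested growth factors and binding proteins 4 rose and 0 fell (median 0.61). Of 27 tested phagocytic and scavenger receptors 11 rose and 1 fell (median 0.71).

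In the lists that follow, at most 4 genes passed with all 8 libraries, and counts of 1 to 3 changed with 1 library left out. Of all genes tested 3.92% rose and 1.10% fell, and the lists in which 1 gene rose lie near the first share. Of 13 integrins 2 rose, Itgax and Itga4, and the latter had a slope of 0.90. Of 13 tested genes of antigen presentation by MHC class II 2 rose, the costimulatory genes Cd83 (262 to 270 CPM against 93.1 to 148 CPM) and Cd40. Of 17 complement and Fc receptor genes 4 rose, 1 of them Itgax, the gene of the gate. The properdin gene Cfp among the 4 followed the border macrophage score (slope 0.83 ± 0.23) while the Fc receptor gene Fcgr4 did not (-0.07 ± 0.18). Of 23 interferon-stimulated genes 1 rose (Rsad2, 1.29 ± 0.25), of 16 tetraspanins 1 rose and 1 fell, and of 29 transcription factors 3 rose (Bhlhe40, Mitf and Rxra). Of 36 cell cycle genes 0 rose and 0 fell (median -0.33). Immediate early and stress genes had a median of 0.81 and 0 of 23 passed, the level being set by library 16. Of 7 tested mitochondrially encoded genes 0 passed (median -0.62), with library 17 the high one. The direction turned without library 17, where all 7 rose. Their summed level was 12570 to 15760 CPM in CD11c+ against 9716 to 10580 CPM in CD11c- libraries 18 to 20.

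Some homeostatic microglial genes were lower in CD11c+ by moderate steps. Of 26 microglial identity genes, all tested, 5 fell and 1 rose (median -0.37). The lower count was 2 without library 13, 3 without library 15 or 19 and 11 without library 17, and the 1 that rose did not pass without library 13 or 14. Tmem119 was at 345, 383, 426 and 331 CPM in CD11c+ and at 581, 755, 854 and 1015 CPM in CD11c- (-1.11 ± 0.17, adjusted p = 0.00169). Selplg, a ligand of selectins, was at 372 to 440 CPM against 675 to 1220 CPM (-1.17 ± 0.17), Slc2a5, a fructose transporter, at 115 to 138 CPM against 216 to 257 CPM (-0.95 ± 0.11), and Sparc fell by a smaller step (-0.54 ± 0.10). P2ry12, the ADP receptor, was at 1834, 2068, 2088 and 1687 CPM against 8759, 3144, 3692 and 4049 CPM. The groups did not overlap, but with library 17 far above the others P2ry12 just missed the threshold (-1.36 ± 0.28, adjusted p = 0.0107). Without library 17 it passed, at -0.92 (adjusted p = 2.47e-04). Itgam, which encodes CD11b, and Siglech did not pass (-0.43 ± 0.10 and -0.58 ± 0.14, adjusted p = 0.0222 and 0.0244). Tyrobp, the adaptor of several immunoreceptors, was the 1 that rose (0.71 ± 0.11).

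Beside the homeostatic genes, Gpr165 and Slco4a1 are named after their values were seen, because the naming rule for the lower side gave mainly granulocyte genes. Gpr165, an orphan receptor gene, was at 74.6, 84.8, 81.6 and 70.2 CPM in CD11c+ against 316, 212, 233 and 228 CPM in CD11c- (-1.67 ± 0.14, adjusted p = 4.24e-05). Slco4a1, a transporter gene, was at 5.88, 7.94, 9.04 and 6.42 CPM against 29.1, 23.1, 25.6 and 25.3 CPM (-1.81 ± 0.17). Their slopes on the neutrophil score were -0.05 and -0.01.

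Granulocyte genes made up another part of the lower side. S100a9, a calcium-binding protein of neutrophils, was at 2.57, 2.54, 3.31 and 3.13 CPM in CD11c+ and at 65.0, 100, 515 and 130 CPM in CD11c- libraries 17 to 20 (-6.14 ± 0.70, adjusted p = 3.28e-04). Ltf, lactoferrin, was at 0.855 to 1.65 CPM against 34.9, 39.6, 205 and 52.4 CPM. The granule protein genes Camp, Elane and Mpo were at 0 to 1.32 CPM in CD11c+ and between 8.87 and 167 CPM in CD11c-. For every one of these genes library 19 was the highest CD11c- library, and the sum over the 12 neutrophil markers was 1873 CPM there against 351 to 469 CPM in libraries 17, 18 and 20. Of the 49 lower genes outside the marker list, 21 had a slope of 0.5 or more on the neutrophil score (42.9%, against 1.91% of all genes tested). Their median log2 fold change was -5.94, and the other 28 had a median of -1.29. Of the microglial identity genes, only Selplg and Tmem119 are among these 28. The score was 3.62 in library 19, 1.47 to 1.89 in the other CD11c- libraries and -2.30 to -1.92 in CD11c+. Slopes on it therefore rest mainly on library 19. Of the variance of the score 92.2% lay between the subsets, and the slopes are given as a description. Mmp9, the 1 neutrophil marker that rose, was at 15.5, 10.3, 9.68 and 6.59 CPM in CD11c+ against 1.86 to 5.02 CPM in CD11c- (1.62 ± 0.32) and had a border macrophage slope of 0.80.

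The CD11c+ against CD11c- comparison of adult mice with EAE (experimental autoimmune encephalomyelitis; 3 libraries per subset) shares no library with the neonatal one and was set beside it in a model of all 17 libraries. Across 13060 genes 1.70% rose and 2.63% fell in EAE CD11c+ microglia at an adjusted p of 0.01 or less. Of the 112 neonatal higher genes with a border macrophage slope under 0.25, 42 rose and 4 fell in EAE. Of the 43 genes between 0.25 and 0.5, 11 rose and 1 fell, and of the 46 genes with a slope of 0.5 or more, 3 rose and 5 fell. Gpnmb, Spp1 and Igf1 rose in EAE too, by 4.86, 2.54 and 3.97 log2 units, and F13a1, Lyve1 and Cd163 did not pass there (-0.88, -0.21 and 0.16).

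The difference between the subset effects was called for 169 genes in favour of neonates (1.29%) and for 13 against (0.0995%). For F13a1 the difference was 4.97 log2 units (adjusted p = 7.53e-05). Csf1 (1.45, adjusted p = 2.05e-04) and Spp1 (2.60, adjusted p = 1.97e-04) also rose by more in neonates, whereas the differences for Gpnmb (1.21, adjusted p = 0.224) and Igf1 (-0.95, adjusted p = 0.436) did not pass. Granulocyte genes were lower in CD11c+ in EAE as well: of the 21 neonatal lower genes that followed the neutrophil score, 15 fell in EAE.

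**Figure D5:**
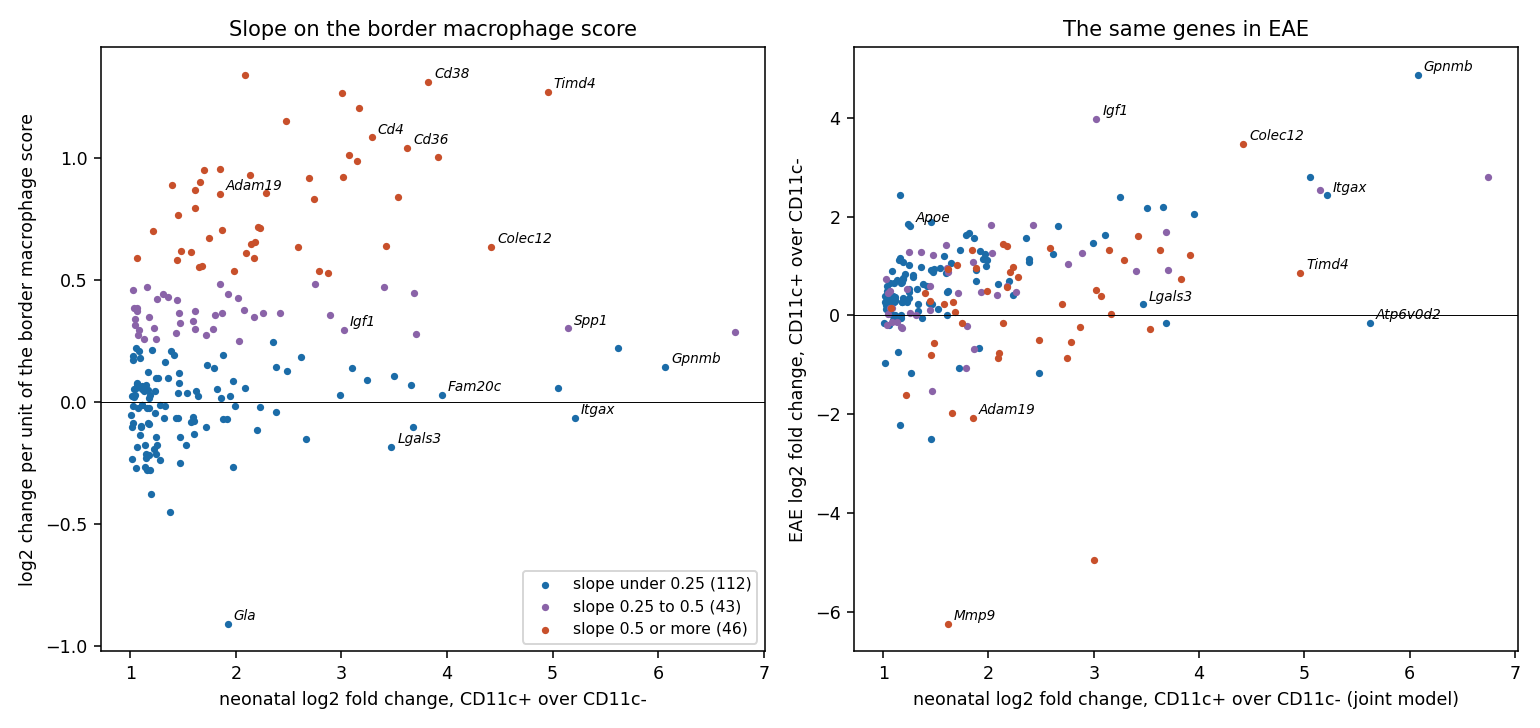
The 201 genes called higher in neonatal CD11c+ microglia at 10 CPM or more, coloured by their slope on the border macrophage score (112 under 0.25, 43 from 0.25 to 0.5, 46 at 0.5 or more). Left, slope against neonatal log2 fold change; right, log2 fold change of CD11c+ over CD11c- in EAE against that in neonates. On the right, Gpnmb and Igf1 lie at 4.86 and 3.97 in EAE, and Adam19 and Mmp9 lie at -2.08 and -6.23.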

How the data were processed

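RNA-seq read counts per gene of 8 sorted neonatal microglia libraries were analysed, beside 6 EAE libraries and 3 adult libraries. The values are raw counts as deposited; per the methods and processing notes, the authors made them from single-end TruSeq reads with STAR and HTSeq 0.5.4 on GRCm38, without normalization. The strand setting of the counting is not given in the sources used here. Of the 41388 gene IDs, 40254 were named from GENCODE M21.

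From these counts, TMM-scaled CPM were computed and CD11c+ was tested against CD11c- with the quasi-likelihood test of edgeR 4.0.16 (R 4.3.3), with Benjamini-Hochberg adjustment over all 12330 genes at 1 CPM or more in at least 3 libraries. Genes were called with the adjusted p at 0.01 or below and a change of 1 log2 unit or more; list members rose or fell at an adjusted p of 0.01 or less. The common biological coefficient of variation was 18.6%. EAE was fitted with all 17 libraries (13060 genes). Scripts were tested on simulated data. DESeq2 1.42.0 and limma 3.58.1 were alternatives. Promoters came from RefSeq.

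Members and lists were chosen with earlier results of these data known. Named genes were, per direction, the 15 called genes with the largest log2 fold change among those at 10 CPM or more without overlap, genes the study names, and up to 4 members of each list with the smallest adjusted p. Apoe, Lpl, Lgals3, Gla, Cd4, Gpr165, Slco4a1, Mmp9, Sparc, Pltp, Tfe3, Tfeb, Tfec and the border macrophage markers Cd163, Pf4, Cbr2, Ms4a7, Stab1 and Mrc1, and the lineage markers listed as low, were named after their values were seen. Depth was 5115489 to 9294738 reads per neonatal library, and a count of 3 was the floor, which covers counting error only.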

Additional observations from a re-analysis of the deposited data

Results flagged for a closer look

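Single libraries stood apart from the other 3 of their group in 22 of 214 groups of 4 values, and chance alone sets apart about 1 in 20. CD11c- library 19 was the highest for the summed neutrophil markers (1873 CPM), monocyte markers (109.2 CPM) and mast cell markers (0.467 CPM), and for S100a8 (345.7 CPM), S100a9 (514.7 CPM), Ltf (204.9 CPM), Camp (167.4 CPM), Elane (47.4 CPM), Mpo (130.9 CPM) and Rsad2 (5.487 CPM). CD11c- library 17 was the highest for mitochondrially encoded genes (53860 CPM), endothelial markers (83.3 CPM), P2ry12 (8759 CPM) and Mrc1 (1243 CPM), and the lowest for Bmp2 (0.1928 CPM) and Atp6v1a (107.0 CPM). CD11c+ library 16 was the highest for immediate early and stress genes (30150 CPM), Gla (134.1 CPM) and Fth1 (890.8 CPM), and the lowest for Dkk2 (6.424 CPM). CD11c- library 20 was the highest for Gla (24.51 CPM), and CD11c+ library 14 the lowest for Apoe (13200 CPM).

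For 24 of 93 genes examined, the CD11c+ against CD11c- log2 fold change differed between neonates and EAE in a test of the difference (edgeR, adjusted p of 0.01 or less). It was larger in neonates by 2.79 for Itgax, 2.60 for Spp1, 1.45 for Csf1, 1.90 for Fam20c, 1.32 for Hpse, 1.63 for Lgals1 and 3.24 for Lgals3. The same held for Plin2 (1.18), Atp6v1a (0.81), Rxra (0.91), Plxnc1 (2.84), Plaur (2.56), Ccl6 (1.10), Ccl9 (1.24) and Vim (2.02). Among genes of the border macrophage gradient the difference was 4.97 for F13a1, 3.33 for Cd163, 2.47 for Folr2, 3.93 for Adam19 and 3.61 for Cfp, and it was 7.85 for Mmp9 and 1.67 for Stab1, a marker with a slope of 0.20. Nes (-1.43) and Slco4a1 (-1.41) differed the other way. Per the methods of the study, the neonates were of mixed sex and the mice with EAE were female. Age, sex, disease and the other cells in each sort cannot be told apart in these differences.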

How the results depend on the processing

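No paired analysis was possible because the library numbers 13 to 20 are not shared between the subsets and the labels link no libraries of one sort. The 312 higher genes became 491 at an adjusted p of 0.05 and 204 at a log2 fold change of 1.5, and 177 to 332 with 1 library left out. The 58 lower genes became 101 at an adjusted p of 0.05, 95 with no filter, 35 at 5 CPM or more in 4 libraries, 94 with all 17 libraries in one model, and 31 to 65 with 1 library left out. With the border macrophage score as a term 0 genes were called higher and 0 lower (456 at an unadjusted p under 0.05), with the neutrophil score 0 and 0 (1137), and with the neuron score 64 and 1 (1461); 80.4% to 93.0% of the variance of each score lay between the subsets. DESeq2 called 429 and 86 genes and limma voom 364 and 83. Genes with a border macrophage slope of 0.5 or more numbered 74 with a summed score and 47 to 70 with 1 of libraries 13, 14, 16 and 17 left out, and 0 to 6 slopes passed. The genes with a smaller subset effect in neonates than in EAE went from 13 to 24 without libraries 1, 16 and 17.

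With the border macrophage score the log2 fold change changed sign for 16 of 93 named genes: Csf1r 0.08, Adam19 -0.59, Cd40 -0.17, Rsad2 -0.04, F13a1 -0.36, Cd163 -0.07, Lyve1 -0.18, Cbr2 -0.46, Ms4a7 -0.44, Mrc1 -1.50, Itga4 -0.91, Dcx -0.52, Map2 -1.01, Fabp7 -0.87, Nes 0.40 and Mmp9 -0.64. The neuron score turned Csf1r (0.18), Mrc1 (-0.50) and Map2 (-0.30), and the neutrophil score Csf1r (0.31), Map2 (-0.05) and S100a8 (0.53). Csf1r ranged from -0.12 to 0.03 with 1 library left out. F13a1, Cd163, Lyve1, Cbr2, Ms4a7 and Mrc1 enter the border macrophage score, Map2 the neuron score and S100a8 the neutrophil score. In these pairs the score holds the gene's own values, so that a change is partly built in. The cause of the other changes was not tested. Between 74 and 89 of the 93 genes kept their direction and their side of the threshold with 1 library left out.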
